A study of Mus musculus with 12 samples.

Results

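The genes described here are 33 enzymes and regulators of cholesterol and fatty acid synthesis, chosen by name out of the 54146 genes in the table. All 33 were found. Levels were measured by RNA-seq in D2A1 cells, a mouse mammary carcinoma line carrying a doxycycline-inducible histone H2B-GFP reporter, after injection into the tail vein of female mice aged 6 to 8 weeks. Cells were loaded beforehand with CellVue Claret, a membrane dye that is diluted at each division, and sorted from the lungs 12 or 14 days later (the sources give both). GFP-positive cells that kept the dye were called dormant, and GFP-positive cells that had lost it were called growing. The Tgfbr2 KO hosts, here KO, lacked the TGF-beta type II receptor gene in myeloid cells, because the floxed gene was cut by a Cre driven from the lysozyme promoter (LysM-Cre), and the hosts labelled WT were the flox controls. The deletion was in host cells and not in the sorted tumour cells, so the level of Tgfbr2 in these libraries is no check of the host label. The 4 groups, growing KO, growing WT, dormant KO and dormant WT, had 3 libraries each, every library made from an aliquot of 50 sorted cells.

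Cholesterol is built from acetyl-CoA. The mevalonate arm joins acetyl units and converts them to farnesyl pyrophosphate, and the sterol arm condenses this to squalene, oxidises and closes it to lanosterol and trims lanosterol to cholesterol. Fatty acids start from the same acetyl-CoA through citrate lyase, acetyl-CoA carboxylase and fatty acid synthase, and are then desaturated and elongated. Both routes are under the SREBP transcription factors, which INSIG proteins hold in the endoplasmic reticulum when sterols are plentiful. Dividing cells need both products for new membrane, and in the lung the alveolar type 2 cell is a heavy user of fatty acid synthesis because it makes surfactant.

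Values are in TPM, a relative transcript abundance scaled for transcript length and library total, so levels of different genes can be set side by side. TPM keeps no depth, and the precision given is therefore the spread between 3 libraries. Each library listed between 11325 and 15315 genes above 0. The dormant WT libraries listed 24.5% to 36.2% of the 13002 tested genes at 0, against 8.78% to 12.5% in the other 9 libraries, and 6, 10 and 10 of the 33 members at 0 in replicates 1, 2 and 3. The 10 alveolar type 2 markers summed to 40285 to 42593 TPM in dormant KO, and to 77.5 to 141 in dormant WT, 462 to 471 in growing KO and 53.7 to 97.3 in growing WT. In dormant KO 9 of these 10 markers were at 1 TPM or more in every library. The exception, Abca3, had a mean of 1.67 TPM there and 5.37 in dormant WT. The summed markers of red cells (50831 to 56264 TPM), neutrophils (4017 to 4353), endothelium (341 to 466) and fibroblasts (1691 to 1878) were also at their highest in dormant KO, although the neutrophil marker Cxcr2 and the fibroblast markers Pdgfra and Col13a1 had higher means in dormant WT, whereas the 4 adipocyte markers summed to at most 4.96 TPM in any library. The 6 mammary and simple epithelial markers did not move one way. Krt8 had 52.1 to 106 TPM in dormant KO and 153 to 381 elsewhere. Krt18 had 159 to 248.7 TPM in dormant KO, 130.6 to 231 in dormant WT and 243 to 519 in growing cells. Krt19 ran opposite to Krt8, with 252 to 418 TPM in dormant KO and at most 14.2 elsewhere. Epcam, Cdh1 and Krt14 stayed under 6 TPM in every library, and each had its highest mean in dormant KO. The part that host-cell RNA played in the results on dormant KO was not tested. In bulk libraries of this kind, fewer cells of a type and less RNA per cell cannot be told apart. Every WT library used here was in library batch 1 and every KO library in batch 2 (the table also holds columns named as WT of batch 2, which no label ties to a sample and which were not used here), so between these libraries host and batch cannot be told apart, whereas each dormant against growing comparison lies within 1 batch.

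Genes were compared on log2(TPM + 1) with limma. They were called at a Benjamini-Hochberg adjusted p of at most 0.05 and a difference of at least 1 log2 unit, a doubling of TPM + 1. All adjusted p values given are from limma over the 13002 genes tested, and 32 of the 33 members were among these. Fads2, the delta-6 desaturase, was at 0 in 8 of 12 libraries and was not tested.

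Of the 11 enzymes of the sterol-forming arm, 7 were called lower in dormant cells than in growing cells of KO hosts, and 4 (Sqle, Msmo1, Ebp and Sc5d) were called lower in dormant cells of KO hosts than in dormant cells of WT hosts. Without dormant KO replicate 1 the former count fell from 7 to 3 (Sqle, Ebp and Sc5d), it was 4 without dormant KO replicate 3, without growing KO replicate 3 or with a pseudocount of 0.1, and with other single libraries left out it ran from 5 to 9. Between dormant KO and growing KO, 9 members were called lower and 0 higher, which is 28.1% of the 32 tested, beside 9.48% of all genes called lower and 8.31% called higher in that comparison. The other 2 of these 9 were Acat2 and Elovl6. Without dormant KO replicate 1 the 9 became 5, which is 15.6% of 32, beside 12.4% of all genes in either direction. Between dormant KO and dormant WT, 5 members were called lower and 2 higher. All genes were called lower in 9.39% and higher in 12.9% there, so the members' total of 21.9% was close to the 22.3% over all genes. Without dormant WT replicate 2 the members called in that comparison went from 7 to 12, which is 37.5% of 32, beside 27.1% of all genes in the same fit. Between dormant WT and growing WT 2 members were called lower and 0 higher, beside 5.67% and 1.85% of all genes. That count went to 5 without dormant WT replicate 1 (15.6% of members and 15.003% of all genes) or replicate 2 (15.6% and 9.65%), to 4 without dormant KO replicate 2, and to 1 without growing WT replicate 2 or 3. Between growing KO and growing WT 0 members were called by limma, with 2 (Dhcr7 and Insig1) at an unadjusted p under 0.05 and 1 (Dhcr7) called when libraries were weighted by quality. That comparison called 0.715% of all genes higher and 0.261% lower. The median difference of the tested members was -1.15 log2 units in dormant KO against growing KO (all genes -0.32), -0.55 against dormant WT (all genes 0.17), -0.23 in dormant WT against growing WT (all genes -0.35) and 0.26 between the growing groups (all genes 0.02).

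**Figure D1:**
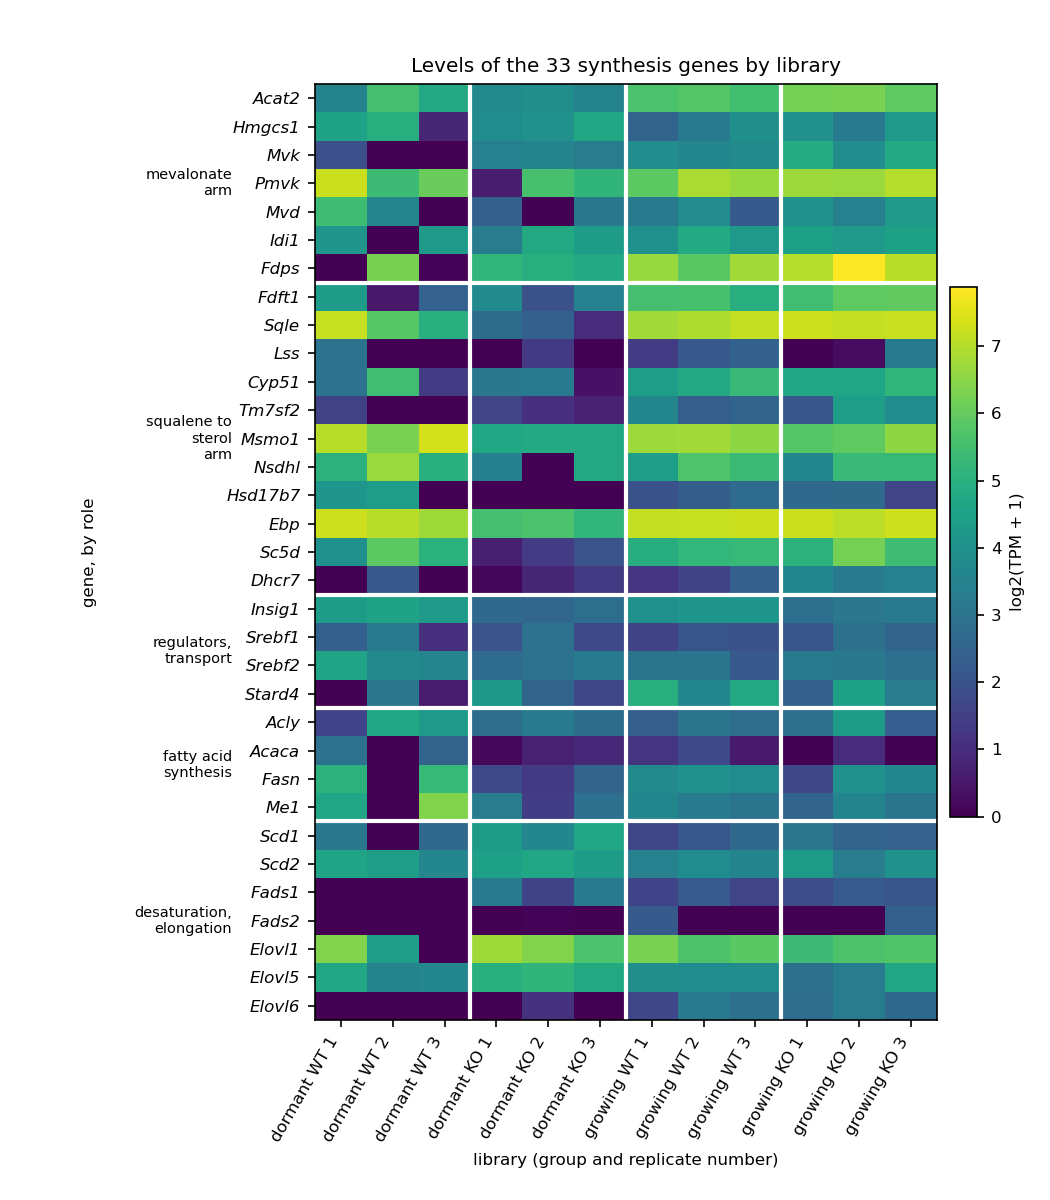
Heat map of log2(TPM + 1) for each of the 33 genes (rows, grouped by role) in each of the 12 libraries (columns, by group and replicate number), with dark blue at 0. In the dormant KO columns the sterol arm rows Sqle, Msmo1, Ebp and Sc5d are darker than in the other 9 columns, and the dormant WT columns hold the most genes listed at 0.

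Summed over the 11 enzymes of the sterol arm, transcripts came to 104 ± 6.72 TPM in dormant KO (mean ± SD, n = 3 libraries here and below), 461 ± 82.9 in dormant WT, 553 ± 57.3 in growing KO and 528 ± 36.1 in growing WT. The 3 dormant KO sums, 96.6 to 110.0 TPM, lay well under the lowest of the other 9 libraries, 367 TPM in a dormant WT library. Sqle and Ebp together made up 35.1% to 61.8% of the sterol arm sum of a library. The 7 enzymes of the mevalonate arm came to 120 ± 31.4 TPM for dormant KO, 186 ± 68.0 in dormant WT, 417 ± 41.3 in growing KO and 278 ± 27.0 in growing WT. Here both dormant groups were under both growing groups, and the dormant groups overlapped. The 7 desaturases and elongases summed to 157 ± 27.8 TPM for dormant KO, 72.4 ± 57.9 in dormant WT, 93.0 ± 14.9 in growing KO and 99.7 ± 10.7 in growing WT. The dormant KO sums, 129 to 184 TPM, overlapped dormant WT, where replicate 1 held 138, and lay above all growing libraries. Of the 6 tested genes of this role only Fads1 was called higher in dormant KO, and only against dormant WT. Elovl1, which was not called, averaged 79.2 TPM of the sum in dormant KO and 33.9 in dormant WT. The most abundant member was Elovl1 in each dormant KO library, whereas it was Ebp in 6 of the other 9 libraries and Sqle, Msmo1 or Fdps in the remaining ones.

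**Figure D2:**
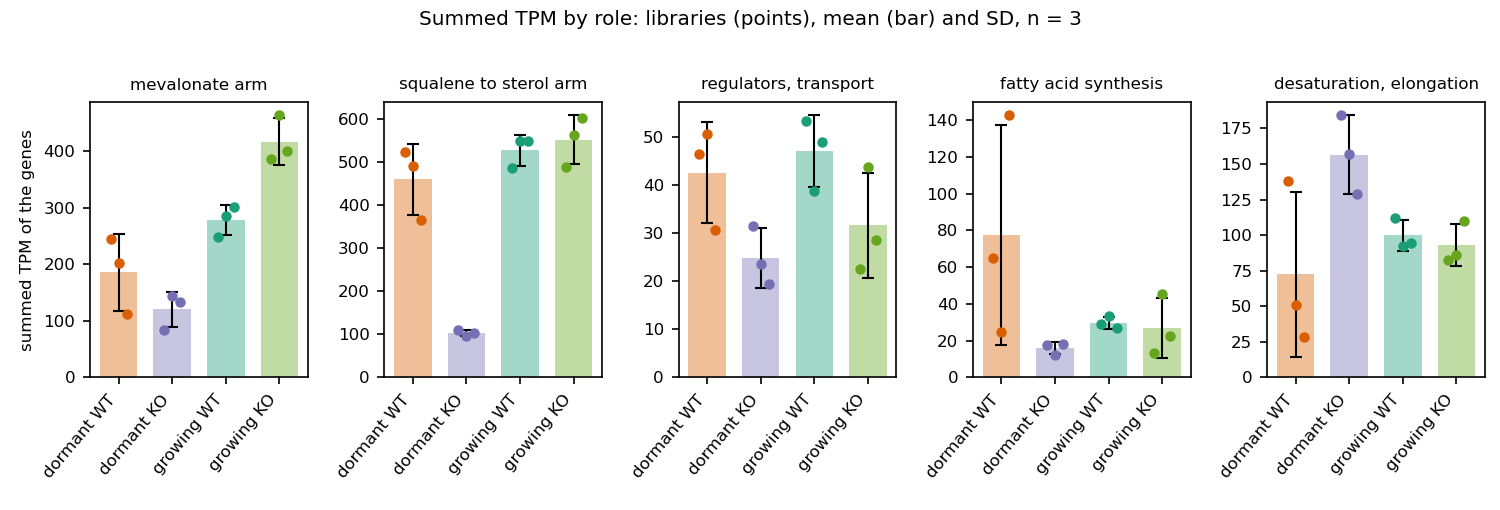
Summed TPM of the genes of each role (vertical axes, linear from 0, a separate scale for each role) in the 4 groups, with points for libraries, bars for means and whiskers for SD (n = 3). The sterol arm sums of dormant KO, 96.6 to 110.0 TPM, sit under all other libraries, while the desaturation and elongation sums of dormant KO, 129 to 184 TPM, lie above the growing groups and overlap dormant WT.

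Squalene epoxidase, encoded by Sqle (ENSMUSG00000022351.14, chr15:59315077-59331192, plus strand, GRCm38), makes the first oxygenation of the sterol arm and is one of its rate-limiting steps. Its level was 5.92, 4.48 and 1.02 TPM in the dormant KO libraries, replicates 1 to 3. The dormant WT libraries held 143, 55.9 and 29.7 TPM, and growing cells 109.9, 120 and 139.8 TPM in WT hosts and 153, 140.0 and 146 TPM in KO hosts. Every dormant KO library thus lay under every other library, and the dormant WT values ran from 29.7 to 143. The difference was -5.12 ± 0.58 log2 units (estimate ± SE) from growing KO (adjusted p = 0.00011) and -3.89 ± 0.58 from dormant WT (adjusted p = 0.00047). As means, dormant KO held 0.026 of the growing KO level. In WT hosts the dormant against growing difference was -0.97 ± 0.58 with an adjusted p of 0.34.

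Sterol-C5-desaturase, encoded by Sc5d (ENSMUSG00000032018.14, chr9:42251595-42264256, minus strand), places the ring double bond in the late sterol intermediates. It stood at 0.63, 1.65 and 3.04 TPM in dormant KO. Dormant WT had 14.5, 58.5 and 31.6 TPM, growing WT 28.9, 35.8 and 37.9 TPM, and growing KO 32.7, 73.4 and 42.4 TPM. The highest dormant KO value, 3.04, lay under the lowest value elsewhere, 14.5. The difference was -4.20 ± 0.57 log2 units from growing KO (adjusted p = 0.00038) and -3.58 ± 0.57 from dormant WT (adjusted p = 0.00081), while dormant WT and growing WT differed by -0.17 ± 0.57 (adjusted p = 0.91).

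The emopamil-binding protein gene Ebp (ENSMUSG00000031168.14, chrX:8185329-8193512, minus strand), the sterol isomerase just upstream of Sc5d, was the steadiest of the abundant members. Its levels were 46.3, 48.8 and 35.6 TPM in dormant KO. They were 153, 130.6 and 106 TPM in dormant WT, 149.5, 136 and 155 in growing KO and 141, 145 and 151 in growing WT. The highest dormant KO library, at 48.8, lay under the lowest of the other 9, at 106. The difference was -1.74 ± 0.24 log2 units from growing KO (adjusted p = 0.00041) and -1.55 ± 0.24 from dormant WT (adjusted p = 0.00066).

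Methylsterol monooxygenase 1, encoded by Msmo1 (ENSMUSG00000031604.10, chr8:64718139-64733792, minus strand), starts the removal of the C4 methyl groups of lanosterol-derived sterols. Its 3 dormant KO values of 25.4, 26.9 and 26.3 TPM were nearly the same. Dormant WT had 130.3, 77.0 and 163 TPM, growing WT 103, 110.2 and 92.1 TPM, and growing KO 54.1, 58.99 and 91.9 TPM. Growing KO lay above dormant KO and below every growing WT library and overlapped dormant WT, and growing KO and growing WT differed by -0.61 ± 0.34 log2 units (adjusted p = 0.87). The difference of dormant KO was -2.13 ± 0.34 log2 units from dormant WT (adjusted p = 0.00076) and -1.31 ± 0.34 from growing KO (adjusted p = 0.017). The latter call was lost under both other scalings tried (adjusted p up to 0.16), without dormant KO replicate 1 (0.056) or 3 (0.0502) and without growing KO replicate 3 (0.080).

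**Figure D3:**
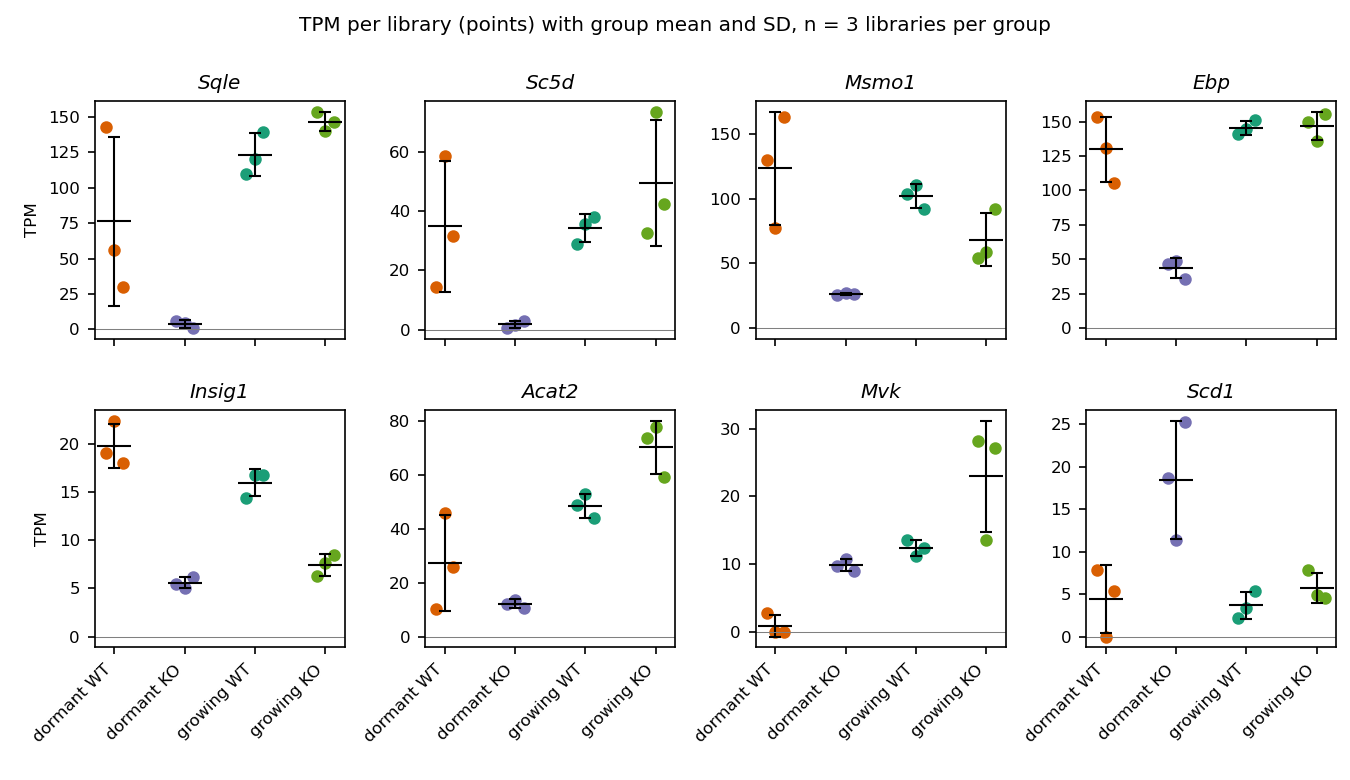
TPM (vertical axes, linear, a separate scale for each gene) of 8 genes in the 4 groups, with points for libraries and black marks for the mean and SD (n = 3). Sqle, Sc5d, Msmo1 and Ebp are lowest in dormant KO, and Insig1 is low in both KO groups. Acat2 has its lowest mean in dormant KO, within the wide spread of dormant WT. Mvk is at or near 0 in dormant WT, and Scd1 is highest in dormant KO.

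Fdft1, Dhcr7 and Tm7sf2 were called lower in dormant KO against growing KO alone. Fdft1 (chr14:63145150-63179578, minus strand), which encodes squalene synthase, had 12.3, 2.90 and 10.3 TPM in dormant KO and 43.1, 59.5 and 61.2 in growing KO, a difference of -2.72 ± 0.83 log2 units (adjusted p = 0.039). It had 19.0, 0.44 and 4.52 TPM in dormant WT and 46.0, 47.0 and 29.9 in growing WT, so it was low in dormant cells of either host, although the WT difference of -2.93 ± 0.83 had an adjusted p of 0.051. Dhcr7 (chr7:143823145-143848410, plus strand), which encodes the reductase of the last step, had 0.07, 0.81 and 1.51 TPM in dormant KO and 11.7, 8.38 and 9.66 in growing KO, a difference of -2.68 ± 0.66 (adjusted p = 0.014). Its WT levels were 0, 3.50 and 0 TPM in dormant and 1.31, 2.05 and 4.32 in growing libraries, so growing KO was the group that stood above the rest. Tm7sf2 (chr19:6062821-6068373, minus strand), a sterol C14-reductase gene, had 2.11, 1.07 and 0.66 TPM in dormant KO and 3.22, 20.2 and 13.2 in growing KO, a difference of -2.30 ± 0.72 (adjusted p = 0.044). Its WT levels were 1.92, 0 and 0 TPM in dormant and 11.2, 4.21 and 4.82 in growing libraries. The Fdft1 and Tm7sf2 calls were each lost in 12 of 21 alternative or left-out fits. Fdft1 overlaps Ctsb on the other strand and Tm7sf2 overlaps Vps51 on the same strand in the GENCODE M21 annotation, so their reads may have been shared with those genes.

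The other 4 sterol arm enzymes were not called in any comparison, though some of them passed in alternative or left-out fits. Lss (lanosterol synthase) stayed between 0 and 8.30 TPM in all 12 libraries. Cyp51, the lanosterol demethylase, had 0.30 to 8.50 TPM in dormant KO and 24.2 to 35.1 in growing KO. The difference was -2.59 ± 0.99 log2 units with an adjusted p of 0.094, and it passed in 2 of 9 alternatives and 2 of 12 left-out fits. Nsdhl, a sterol dehydrogenase of the C4 demethylation complex, ranged from 0.02 to 25.7 TPM in dormant KO and from 30.7 to 102 in dormant WT (-2.85 ± 1.04, adjusted p = 0.068). It passed without dormant KO replicate 3 alone. Hsd17b7, the ketoreductase of the same complex, was listed at 0 in every dormant KO library and had 2.10 to 5.54 TPM in growing KO (adjusted p = 0.12). It passed in that comparison in 2 of 9 alternatives and without dormant WT replicate 3. Its dormant WT libraries had 16.4, 20.4 and 0 TPM, which fell just short of a call against dormant KO (adjusted p = 0.054) and passed in 2 of 8 alternatives and without dormant WT replicate 3. In sum all 11 sterol arm differences between dormant KO and growing KO were below 0, with 7 called (3 without dormant KO replicate 1) and a median of -2.34 log2 units, and the 11 also lay below 0 under both other scalings, with 4 and 6 called. Between dormant WT and growing WT 8 of the 11 lay below 0, with 0 called and a median of -0.97 (all genes -0.35). Of all 13002 tested genes, 4527 lay above 0 in that comparison and 5120 in dormant KO against growing KO.

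The dormant against growing difference was itself compared between hosts through the interaction, taken as KO hosts minus WT hosts. It was called for 3 members, all lower and all in the sterol arm, beside 3.91% of all genes called lower and 6.18% called higher. The members' total of 9.38% was close to the 10.1% over all genes. The count went to 6 without dormant WT replicate 1 (4 lower and 2 higher, 18.8% of members and 15.2% of all genes) and to 5 without dormant WT replicate 2 (4 lower and 1 higher, 15.6% and 13.7%). In the fit of all 12 libraries the value was -4.15 ± 0.81 log2 units for Sqle (adjusted p = 0.0076), -4.03 ± 0.81 for Sc5d (adjusted p = 0.0086) and -1.56 ± 0.34 for Ebp (adjusted p = 0.013). Host and batch cannot be told apart in this value either, and the part of batch was not tested. The Ebp call was lost under both other scalings (adjusted p up to 0.073), whereas Sqle and Sc5d kept theirs in every alternative and every left-out fit. Msmo1 had -1.52 ± 0.48 with an adjusted p of 0.069.

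The promoters of the members were examined for the letters TCACNCCAC, a form of the sterol regulatory element that SREBPs bind, and CCAAT, the box of NF-Y, a factor known to act beside SREBPs. Both strands were searched, in RefSeq windows from 250 bases before to 50 bases after the start of transcription (GRCm38.p6), and the patterns do not overlap one another. A window was held for 26 of the 33 members and not for Fads1, Fdft1, Fdps, Scd1, Scd2, Sqle or Stard4, so the gene with the largest difference is not covered. TCACNCCAC was found in 1 of the 26, Hmgcs1, beside 1.44% of the 27025 genes with a window. CCAAT was found in 22 of the 26 (84.6%), beside 41.1% of all genes with a window and 43.1% of the 8627 tested genes with one. Of the 4 upstream stretches of 150 bases shown here, Ebp and Sc5d were called lower in dormant KO, Mvk higher than in dormant WT, and Hmgcs1 carries the sterol element without a call. They run 5′ to 3′ on the strand of the gene up to the base before its start, and capitals mark TCACNCCAC, CCAAT or the reverse complement ATTGG.
Ebp (chrX:8193513-8193662, minus strand): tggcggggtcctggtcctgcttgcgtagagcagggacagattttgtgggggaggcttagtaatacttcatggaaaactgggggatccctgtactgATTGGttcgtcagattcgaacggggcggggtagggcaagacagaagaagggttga
Sc5d (chr9:42264301-42264450, minus strand): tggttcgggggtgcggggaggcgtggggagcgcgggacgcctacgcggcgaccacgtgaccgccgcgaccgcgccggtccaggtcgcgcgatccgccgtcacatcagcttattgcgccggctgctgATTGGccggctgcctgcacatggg
Mvk (chr5:114444119-114444268, plus strand): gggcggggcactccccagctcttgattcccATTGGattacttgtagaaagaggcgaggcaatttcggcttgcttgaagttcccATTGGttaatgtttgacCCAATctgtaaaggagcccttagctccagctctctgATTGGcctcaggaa
Hmgcs1 (chr13:119690201-119690350, plus strand): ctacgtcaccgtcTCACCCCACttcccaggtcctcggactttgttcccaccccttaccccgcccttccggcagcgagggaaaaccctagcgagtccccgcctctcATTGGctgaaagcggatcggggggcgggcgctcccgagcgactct
Within these stretches Ebp and Sc5d hold 1 CCAAT match each and Mvk holds 4, so a match was present in members called in either direction. A match is a run of letters and no measure of binding, and windows without TCACNCCAC may hold other forms of the element.

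In the mevalonate arm, Acat2 and Mvk were called. Acat2 (ENSMUSG00000023832.13, chr17:12942890-12960747, minus strand) encodes the cytosolic thiolase that joins the first acetyl units. It had 12.2, 13.8 and 10.5 TPM in dormant KO, 10.4, 45.9 and 25.7 in dormant WT, 73.7, 77.9 and 59.2 in growing KO and 48.7, 53.0 and 44.0 in growing WT. Dormant KO lay under every growing library and overlapped dormant WT. The difference from growing KO was -2.43 ± 0.48 log2 units (adjusted p = 0.0037), and the WT difference was -1.03 ± 0.48 (adjusted p = 0.22). Mvk (ENSMUSG00000041939.14, chr5:114444269-114460591, plus strand), mevalonate kinase, had its low group elsewhere. Its level was 2.78, 0 and 0 TPM in dormant WT, 9.76, 10.8 and 9.04 in dormant KO, 28.2, 13.6 and 27.2 in growing KO and 13.6, 11.2 and 12.4 in growing WT. The dormant KO level exceeded that of dormant WT by 2.80 ± 0.60 log2 units (adjusted p = 0.0051), and dormant WT was lower than growing WT by -3.10 ± 0.60 (adjusted p = 0.0096). Both Mvk calls rest on dormant WT libraries listed at or near 0, in the group with the largest share of genes listed at 0.

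The remaining mevalonate genes were not called, and several varied widely among replicates. Fdps, which makes farnesyl pyrophosphate, had 0, 74.9 and 0.06 TPM in dormant WT, 27.2 to 35.5 in dormant KO, 127 to 234 in growing KO and 56.7 to 110.1 in growing WT. It overlaps another protein-coding gene, Gm43738, on the same strand. Pmvk, phosphomevalonate kinase, had 0.51, 46.6 and 34.4 TPM in dormant KO and 102 to 126 in growing KO (-3.03 ± 1.05, adjusted p = 0.066). Mvd, the decarboxylase, ranged from 0 to 41.9 TPM over all libraries, Idi1, the isomerase, from 0 to 27.3, and Hmgcs1, HMG-CoA synthase, from 0.78 to 29.6. Hmgcs1 differed between dormant KO and growing KO by 0.36 ± 0.93 log2 units (adjusted p = 0.84), so of the first steps of the pathway Acat2 was called lower there and Hmgcs1 was not.

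Among the regulators, Insig1 (ENSMUSG00000045294.11, chr5:28071363-28078662, plus strand), itself a target of SREBPs, had its low values in both KO groups. It had 5.51, 5.09 and 6.18 TPM in dormant KO, 6.25, 7.64 and 8.47 in growing KO, 19.0, 22.4 and 18.0 in dormant WT and 14.3, 16.8 and 16.8 in growing WT. The KO libraries all lay at 8.47 TPM or less and the WT libraries at 14.3 or more. Dormant KO was lower than dormant WT by -1.65 ± 0.41 log2 units (adjusted p = 0.011), a call that was lost under 3 alternatives (adjusted p up to 0.11). The difference of growing KO from growing WT was -1.01 ± 0.41 with an adjusted p of 0.53. The host difference coincides with the batch difference for this gene, and they cannot be told apart. The SREBP genes were not called. Srebf2, whose product drives the sterol genes, had 5.78 to 8.70 TPM in dormant KO, 11.1 to 23.2 in dormant WT, 6.39 to 8.74 in growing KO and 3.59 to 7.19 in growing WT (dormant KO against dormant WT -0.97 ± 0.49, adjusted p = 0.19). Srebf1, whose product drives lipogenic genes, stayed between 1.09 and 8.34 TPM in all 12 libraries. Stard4, a cytosolic sterol carrier, ranged from 0 to 7.79 TPM in dormant WT and from 11.7 to 29.9 in growing WT (adjusted p = 0.057), and its KO groups overlapped.

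None of the 4 genes of fatty acid synthesis proper was called in any of the 5 comparisons, and 0 of them had an unadjusted limma p under 0.05 in any. Fasn, fatty acid synthase, had 32.2, 0 and 37.6 TPM in dormant WT, 2.31, 1.53 and 4.92 in dormant KO, 2.18, 14.9 and 11.5 in growing KO and 12.2, 15.1 and 13.3 in growing WT. Me1, the malic enzyme that supplies NADPH, had 24.3, 0 and 82.8 TPM in dormant WT and 1.71 to 11.2 in the other 9 libraries. For both genes dormant WT replicate 2 was listed at 0 while replicates 1 and 3 held the highest values of the series, and with that library left out both were called lower in dormant KO than in dormant WT (adjusted p = 0.0050 for Fasn and 0.0089 for Me1). Acaca, acetyl-CoA carboxylase, was at most 6.73 TPM anywhere and was also called lower there without that library (adjusted p = 0.010) and under quantile normalization. So 3 of the 4 were called with that library left out, in a fit that called 27.15% of all genes. Fasn and Me1 were each called there in 0 of 9 alternatives and in 1 of 12 left-out fits. Acly, ATP citrate lyase, ranged from 2.01 to 24.8 TPM with overlapping groups in all 4 pairs.

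Of the desaturases and elongases, Fads1 was called higher in dormant KO, and only against dormant WT. Elovl6 was called lower in dormant cells of both hosts, and the others were not called. Fads1 (chr19:10182888-10196877, plus strand), the delta-5 desaturase gene, was listed at 0 in all 3 dormant WT libraries, so no fold is given. It had 8.52, 2.04 and 8.33 TPM in dormant KO, 2.66, 3.83 and 3.23 in growing KO and 1.98, 3.78 and 2.11 in growing WT. Its dormant KO level was called higher than its dormant WT level (adjusted p = 0.0029). This call rests on the group with the largest share of genes listed at 0. Dormant KO overlapped growing KO, with a difference of 0.62 ± 0.53 log2 units (adjusted p = 0.47). Elovl6 (chr3:129532355-129638495, plus strand), which elongates palmitate, was listed at 0 in all dormant WT libraries and had 0.01, 1.22 and 0 TPM in dormant KO, 5.99, 9.14 and 5.37 in growing KO and 2.22, 8.58 and 6.43 in growing WT. It was near 0 in dormant cells of both hosts and present in all 6 growing libraries. It was called lower in dormant KO than in growing KO (-2.55 ± 0.53 log2 units, adjusted p = 0.0055) and in dormant WT than in growing WT (adjusted p = 0.012). The WT call also rests on dormant WT libraries listed at 0. It was lost when libraries were weighted by quality and without growing WT replicate 2 or 3.

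Scd1, the stearoyl-CoA desaturase, had 18.7, 11.4 and 25.3 TPM in dormant KO, and its other 9 libraries held at most 7.81. The difference from dormant WT was 2.28 ± 0.77 log2 units with an adjusted p of 0.053, just short of a call, and it passed in 4 of 9 alternatives and 2 of 12 left-out fits. Its paralogue Scd2 had 9.11 to 24.9 TPM over all libraries with adjusted p values of 0.40 or more. Elovl5, which elongates polyunsaturated fatty acids, had 26.8 to 34.4 TPM in dormant KO and 6.54 to 24.9 elsewhere (1.34 ± 0.53 against growing KO, adjusted p = 0.11). That difference passed in 2 of 9 alternatives, both other scalings, and without growing KO replicate 3. Against dormant WT it passed under median-ratio scaling alone. Elovl1, which makes very long chains, had 49.4 to 106 TPM in dormant KO and 0 to 82.0 in dormant WT (adjusted p = 0.13). It shares its locus with Cdc20 on the other strand, a cell cycle gene. The marker sum of alveolar type 2 cells, which are rich in Scd1, was also highest in dormant KO, and its part in these values was not tested.

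**Figure D4:**
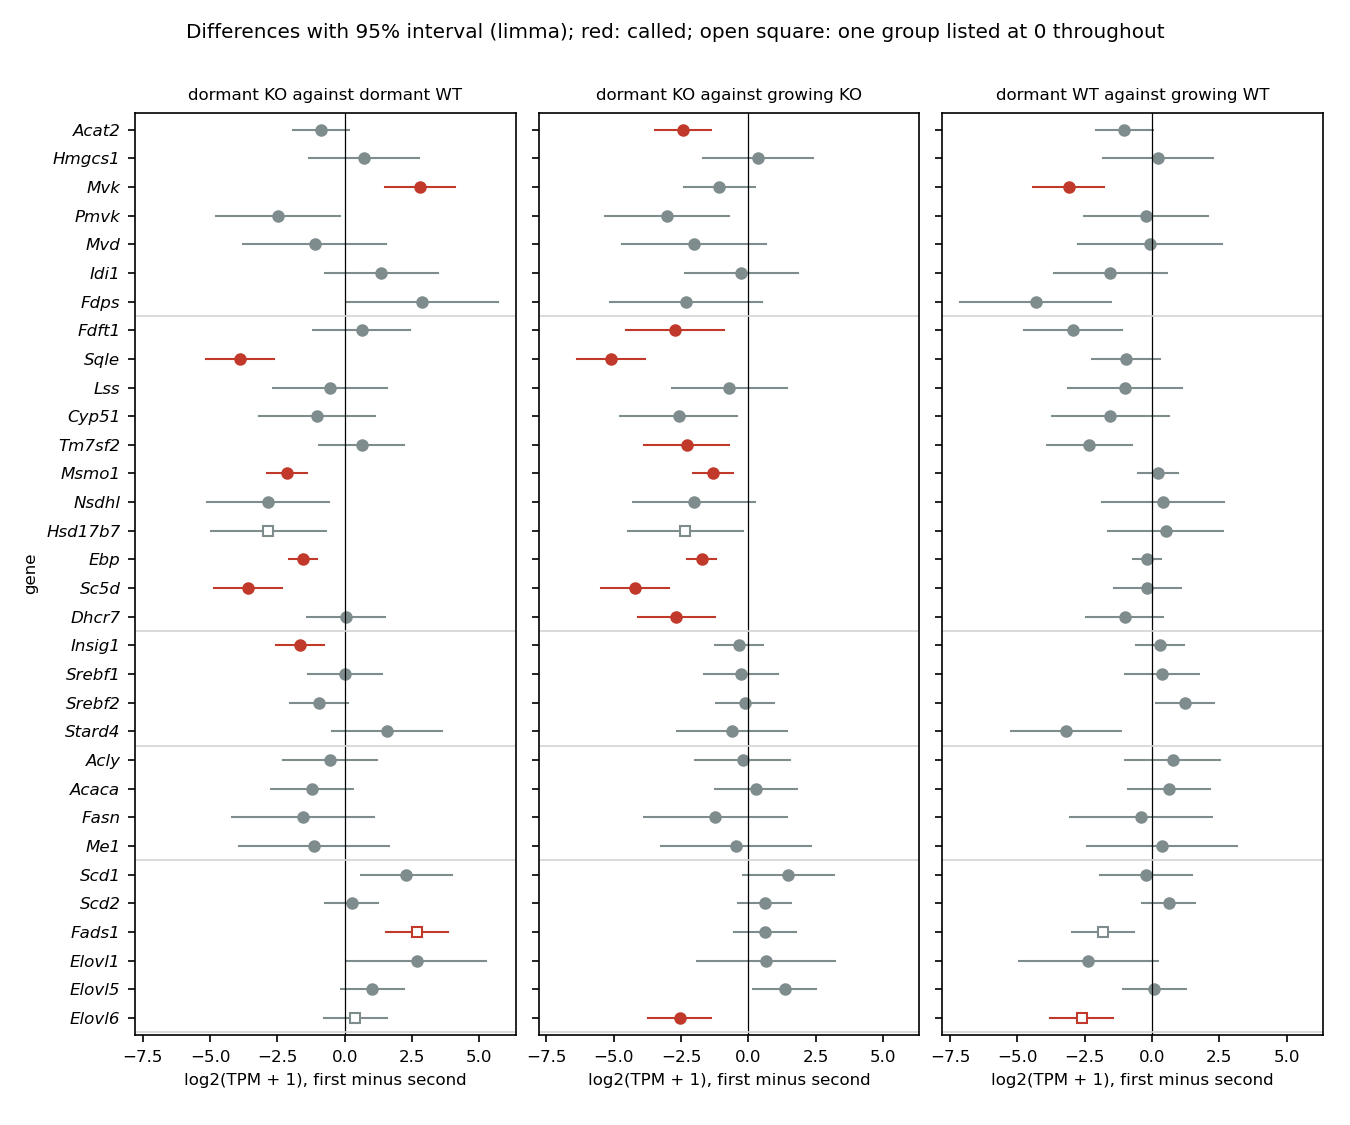
Differences in log2(TPM + 1), first group minus second, with 95% limma intervals (horizontal axes) for the 32 tested genes (rows, by role) in 3 comparisons, called ones in red and open squares where 1 of the groups was listed at 0 throughout. Sterol arm genes lie to the left in dormant KO against growing KO (11 of 11 below 0, 7 called), and 8 of 11 do so in dormant WT against growing WT (0 called). Of all 13002 tested genes, 5120 lay above 0 in the former and 4527 in the latter.

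The rest of lipid metabolism was read from 7 lists with 87 genes, 72 of them tested. In dormant KO against dormant WT 14 were called higher and 12 lower, beside 12.9% of all genes called higher and 9.39% lower. In dormant KO against growing KO 10 were called higher and 10 lower, beside 8.31% and 9.48% of all genes. These shares apply to each list that follows, and lists with 1 call among 6 to 15 genes are near them.

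Of the 10 genes of fatty acid uptake and lipid droplets, 6 were called higher and 0 lower in dormant KO against dormant WT, where 12.9% of all genes were called higher, and 5 higher and 1 lower against growing KO, where 8.31% were. Differences below 0 were found for 2 of the 10 in the former and 4 of the 10 in the latter. Fabp4, a fatty acid binding protein typical of macrophages, endothelium and fat, had 193, 193 and 281 TPM in dormant KO, 0 in all dormant WT libraries and at most 8.06 in growing KO (5.17 ± 0.59 log2 units, adjusted p = 0.00012). Cd36, a fatty acid transporter, averaged 222 TPM in dormant KO and 13.2 in growing KO (4.09 ± 0.65, adjusted p = 0.0010). The exception was Plin2, the coat protein of lipid droplets, which averaged 117 TPM in dormant KO and 387 in growing KO (-1.72 ± 0.30, adjusted p = 0.0018). The summed markers of endothelium and of macrophages, which express Fabp4 and Cd36, were also highest in dormant KO (341 to 466 and 473 to 684 TPM), although 3 of the 7 macrophage markers, Adgre1, Marco and Mrc1, had higher means in dormant WT, and their part was not tested.

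In fatty acid oxidation 3 of 11 tested genes were called lower in each comparison of dormant KO and 0 higher, beside 9.39% (against dormant WT) and 9.48% (against growing KO) of all genes called lower. Acadvl, the very long chain acyl-CoA dehydrogenase, fell the most, averaging 15.9 TPM in dormant KO, 73.0 in dormant WT and 100.4 in growing KO (-2.33 ± 0.47 and -2.80 ± 0.47 log2 units, adjusted p = 0.0034 and 0.0014). Among 15 tested genes of glycerolipid synthesis 1 was called higher and 3 lower in dormant KO against dormant WT, with Acsl4, an acyl-CoA synthetase for arachidonate, at 7.86 against 75.9 TPM (-3.09 ± 0.41, adjusted p = 0.00023). Against growing KO 1 was called, Acsl5, at 17.3 against 74.2 TPM (-2.11 ± 0.40, adjusted p = 0.0029). Among 12 tested genes of sterol efflux and storage 3 were called higher and 2 lower in dormant KO against dormant WT, and 3 higher (Ch25h among them) and 0 lower against growing KO. The 2 lower genes were Soat1 and Lipa, neither called against growing KO. Soat1, which esterifies cholesterol, averaged 23.4 against 129 TPM (-2.46 ± 0.46, adjusted p = 0.0024), and Lipa, the lysosomal acid lipase, 26.4 against 130 TPM (-2.27 ± 0.39, adjusted p = 0.0013). Ch25h, which makes 25-hydroxycholesterol, had 17.4 to 26.1 TPM in dormant KO and was listed at 0 in dormant WT (adjusted p = 0.00042). Among 12 tested genes of other lipogenesis 2 were called higher and 3 lower against dormant WT, and 2 higher and 4 lower against growing KO. Acss2, which makes acetyl-CoA from acetate, was lower in dormant cells of both hosts, at 0.18 against 12.8 TPM in KO (-3.54 ± 0.56, adjusted p = 0.00097) and 3.05 against 14.7 in WT (-2.08 ± 0.56, adjusted p = 0.042).
Other sterol enzymes gave 1 higher call of 6 tested (Nus1) against dormant WT and 0 against growing KO.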

How the data were processed

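RNA was sequenced from 12 libraries of D2A1 cells, 3 in each of 4 groups read from the labels. The deposited values are TPM, which the authors obtained by trimming with Cutadapt, aligning with STAR 2.5.2b to mm10 and estimating gene levels with RSEM on GENCODE; per the methods libraries were made by a Smart-seq protocol, per the labels with a TruSeq mRNA kit. RSEM divides reads between overlapping or similar genes by estimate, and use of strand was not given in the sources used here. TPM keeps no depth, so no counting interval was possible. Another 30 per-sample columns, some named as WT of batch 2, matched no labelled sample and were left out.

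Values were used without rescaling, as log2(TPM + 1). Genes with at least 1 TPM in at least 3 libraries were tested, 13002 of the 25916 above 0 in any. One linear model with a mean per group and 8 residual degrees of freedom was fitted with limma 3.58.1 (R 4.3.3, trended eBayes) and 5 contrasts were adjusted by Benjamini-Hochberg. The count model of the authors, DESeq2, was not applicable to TPM. The fitting code was tested on simulated data. Groups listed at 0 throughout were given no fold. Coordinates are from GENCODE M21 and promoter windows from RefSeq, both on GRCm38 (mm10), with members matched by symbol. The study's legend gives 3 mice per group, but no label ties a library to a mouse, so p-values measure the spread between these libraries.

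The members and the gene lists were chosen with earlier results of these data known. Per-library values were given for members called in at least 1 contrast whose compared groups did not overlap, other members by range (with single libraries of Fasn, Me1, Fdps, Pmvk, Hsd17b7 and Scd1 added after their values were seen), and lists by counts with the largest called genes. Some genes that this rule also named are not reported here. Alternatives were 2 pseudocounts, 2 filters, 2 scalings, library weights, a replicate block, fits of only the groups compared and each library left out.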

Additional observations from a re-analysis of the deposited data

Results flagged for a closer look

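Sqle, Sc5d and Ebp drew attention because their dormant against growing difference was not the same in KO and WT hosts, by a limma test of the interaction with Benjamini-Hochberg adjustment. These 3 are 9.38% of the tested members, close to the 10.1% of all genes called in the interaction. The dormant against growing difference lay further below 0 in KO hosts. The limma interaction was -4.15 log2 units for Sqle (adjusted p = 0.0076), -4.03 for Sc5d (adjusted p = 0.0086) and -1.56 for Ebp (adjusted p = 0.013). Host and batch cannot be told apart in these values. In KO hosts all 3 dormant libraries lay under all 3 growing libraries for each of these genes, whereas in WT hosts the dormant and growing libraries overlapped for all of them. The alveolar type 2 marker sum (40285 to 42593 TPM in dormant KO, at most 471 elsewhere) and the level of Spp1, an abundant tumour cell transcript (1236 to 1509 TPM in dormant KO, 28980 to 39951 elsewhere), separate the same libraries, and their part was not tested.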

How the results depend on the processing

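Of the 21 called member differences, 0 reversed under any alternative, and 13 were called in every alternative and left-out fit in which they were tested, among them Sqle and Sc5d in 3 comparisons each and Ebp in 2. Members called between the growing groups numbered 0, and 1 with library weights. Between dormant WT and growing WT there were 2, and 4 with a pseudocount of 0.1 or with a minimum of 5 TPM. Between dormant KO and growing KO there were 9, and 14 with library weights, where calls over all genes also went from 2313 to 3586. With single libraries left out, the counts ran from 7 to 12 for dormant KO against dormant WT (12 without dormant WT replicate 2), from 1 to 5 for dormant WT against growing WT (5 without dormant WT replicate 1 or 2, 4 without dormant KO replicate 2, 1 without growing WT replicate 2 or 3), from 5 to 12 for dormant KO against growing KO (5 without dormant KO replicate 1) and from 3 to 6 for the interaction (6, of which 2 higher, without dormant WT replicate 1, where 15.2% of all genes were called, and 5 without dormant WT replicate 2), and 0 members were called between the growing groups in any of these. Lost calls were those of Insig1, Fdft1, Tm7sf2 and Msmo1 given with their values above, Dhcr7 (pseudocount of 0.1, or without dormant KO replicate 1), Elovl6 in WT hosts (library weights, or without growing WT replicate 2 or 3), Mvk in WT hosts (only the groups compared) and Ebp in the interaction (both scalings); the cause was not tested. Median-ratio scaling moved the median of all genes in dormant KO against dormant WT from 0.17 to 0.50 log2 units and the calls from 1677 higher and 1221 lower to 2289 and 804, and in dormant KO against growing KO from -0.32 to 0.09 and from 1080 and 1233 to 1491 and 663. Quantile normalization gave 1263 higher and 958 lower in the latter, and 489 and 478 in dormant WT against growing WT (240 and 737 without it). For the interaction, median-ratio scaling gave 1130 higher and 299 lower (803 and 509 without it). Deviations of same-numbered libraries of different groups correlated at -0.015 to 0.021 (18 pairs). These values cannot tell whether libraries of the same number came from the same mouse, because no label ties a library to a mouse. With a replicate block 7, 0, 2, 8 and 3 members were called in the 5 comparisons. Depth is unknown for TPM, so levels near 0 carry no stated limit.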
